A study of Mus musculus with 12 samples.

Results

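The Rab GTPases were described across RNA-seq libraries of RAW264.7 cells, a mouse macrophage-like cell line. Members were the genes of the deposited expression table whose symbol was Rab followed by a number and, where present, a letter and a digit. This rule left out Rab effectors, activators and Rab-like genes, and no expression value entered it. It found 59 members of 53801 genes.

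Synbindin is the product of Trappc4 and belongs to the TRAPP complexes that tether transport vesicles. It was silenced with a small interfering RNA (siRNA), and some cells were given lipopolysaccharide (LPS), a bacterial membrane component that activates Toll-like receptor 4. The 4 groups held 3 libraries each. They were Synbindin siRNA cells after 4 h with 100 ng/ml LPS, control siRNA cells after the same LPS, Synbindin siRNA cells without LPS and control siRNA cells without LPS. All groups were the same line at passages 3 to 5, so every difference rests on 1 transformed line, and the sequence of the siRNA is not given in the sources used here. The labels number the libraries of a group without naming separate cultures or transfections. The p-values therefore reflect only the spread of these libraries, which may be technical. Values are FPKM (fragments scaled to transcript length and to the mapped fragments of the library), as deposited by the authors.

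Rab proteins are small GTPases that cycle between an inactive GDP-bound form in the cytosol and an active GTP-bound form on a membrane, where they recruit tethers, motors and adaptors to vesicles. Exchange factors switch them on, GTPase-activating proteins switch them off, and lipid anchors attached by prenylation hold them to the membrane. TRAPP complexes are exchange factors for Rab1, which acts in transport from the endoplasmic reticulum (ER) to the Golgi, and for Rab11, which acts in recycling to the cell surface. In macrophages, Rabs also drive phagosome maturation, secretion and the traffic of Toll-like receptor 4.

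The 12 libraries held 11672 to 12351 genes at 1 FPKM or more. Depth is unknown, since low values did not fall on the steps that whole fragments would give. Of 8 macrophage markers, 7 were present in every library and Mertk did not pass 0.116 FPKM. Their summed level was 1880 to 2610 FPKM in Synbindin siRNA cells, against 1360 to 1750 FPKM in control cells after LPS, and 2100 to 2540 FPKM in Synbindin siRNA cells, against 1490 to 1620 FPKM in control cells without LPS. The sums did not rest on the markers alike. They counted both records of Itgam. Of these records, 1 ran from 0.0498 FPKM (control library 1 without LPS) to 38.7 FPKM (control library 3 without LPS). Lyz2 averaged 1100 FPKM in Synbindin siRNA cells and 463 FPKM in control cells after LPS, and 1210 FPKM in Synbindin siRNA cells and 554 FPKM in control cells without LPS, and it rose both times (limma adjusted p = 0.0121 and 0.0283). Fcgr1 averaged 33.9 FPKM in Synbindin siRNA cells and 19.3 FPKM in control cells after LPS and also rose there (limma adjusted p = 0.0417). It was not called without LPS (adjusted p = 0.397). After LPS Cd14 averaged 601 FPKM in Synbindin siRNA cells and 416 FPKM in control cells, while Cd68 averaged 390 FPKM and 453 FPKM and Csf1r 174 FPKM and 203 FPKM in the same order, and these 3 did not pass. The part of these markers in the results on silencing was not tested. All 15 markers of B cells, T cells, neutrophils, fibroblasts and epithelial cells stayed at or under 0.525 FPKM, and 10 of them were listed at 0 in every library. Mitochondrially encoded transcripts took 12.2% to 13.8% of all FPKM after LPS, against 15.3% to 18.7% without LPS, and their part in the results with LPS was not tested.

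Trappc4 was lower in every Synbindin siRNA library than in every control library given the same treatment. After LPS it had 5.86, 7.71 and 8.26 FPKM in Synbindin siRNA cells, against 13.8, 15.7 and 9.45 FPKM in control cells, so 56.1% remained. Without LPS it had 4.35, 7.17 and 6.15 FPKM in Synbindin siRNA cells, against 14.1, 13.1 and 12.5 FPKM in control cells, so 44.5% remained. The exact permutation test of 3 against 3 libraries gave a 2-sided p of 0.1 with and without LPS, the smallest it allows. In limma, fitted to log2(FPKM + 1) over all genes, Trappc4 differed by -0.74 ± 0.19 after LPS (log2 fold change ± SE; adjusted p = 0.12) and by -1.07 ± 0.19 without LPS (adjusted p = 0.0558), both short of the threshold of 0.05. The reduction was therefore partial at the RNA level.

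Rab7, which directs traffic to late endosomes and lysosomes, was the most abundant Rab in all 4 groups by mean level. It averaged 90.5 ± 17.7 FPKM in Synbindin siRNA cells and 104 ± 4.16 FPKM in control cells after LPS (SD, n = 3 each). Without LPS its mean in control cells was 106 ± 3.55 FPKM (SD, n = 3). Behind it in control cells without LPS stood Rab31, Rab10, Rab5c and Rab1a (listed as Rab1), at means of 75, 62.1, 60.1 and 55.4 FPKM. The leading 5 Rabs held 45.1% of the summed Rab level in Synbindin siRNA cells and 46.5% in control cells after LPS, and after LPS the leading 5 included Rab8b in place of Rab31. The summed level was 813 ± 27.6 FPKM in Synbindin siRNA cells and 870 ± 26 FPKM in control cells after LPS, and 823 ± 24.9 FPKM in Synbindin siRNA cells and 852 ± 8.58 FPKM in control cells without LPS (SD, n = 3 each). In every library it was 0.23% to 0.268% of all FPKM.

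Of the 59 members, 39 reached 1 FPKM in at least 3 of the 12 libraries and were tested, and 33 of these were at 1 FPKM or more in all 12. The other 20 were not tested. Of these, 9 were listed at 0 in every library, Rab17, Rab27b, Rab36, Rab38, Rab39b, Rab3b, Rab3c, Rab6b and Rab9b, which include family members best known from epithelia, melanocytes, platelets and neurons. The remaining 11, Rab15, Rab25, Rab26, Rab30, Rab33a, Rab37, Rab39, Rab40b, Rab42, Rab44 and Rab4a, reached at most 1.23 FPKM in any library. Within subfamilies, the members were unequally expressed. Rab2a made up 91.4% ± 1.59 of the sum of Rab2a and Rab2b in control cells without LPS, and Rab7 made up 80.5% ± 0.803 of the sum of Rab7 and Rab7b (SD, n = 3).

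**Figure D1:**
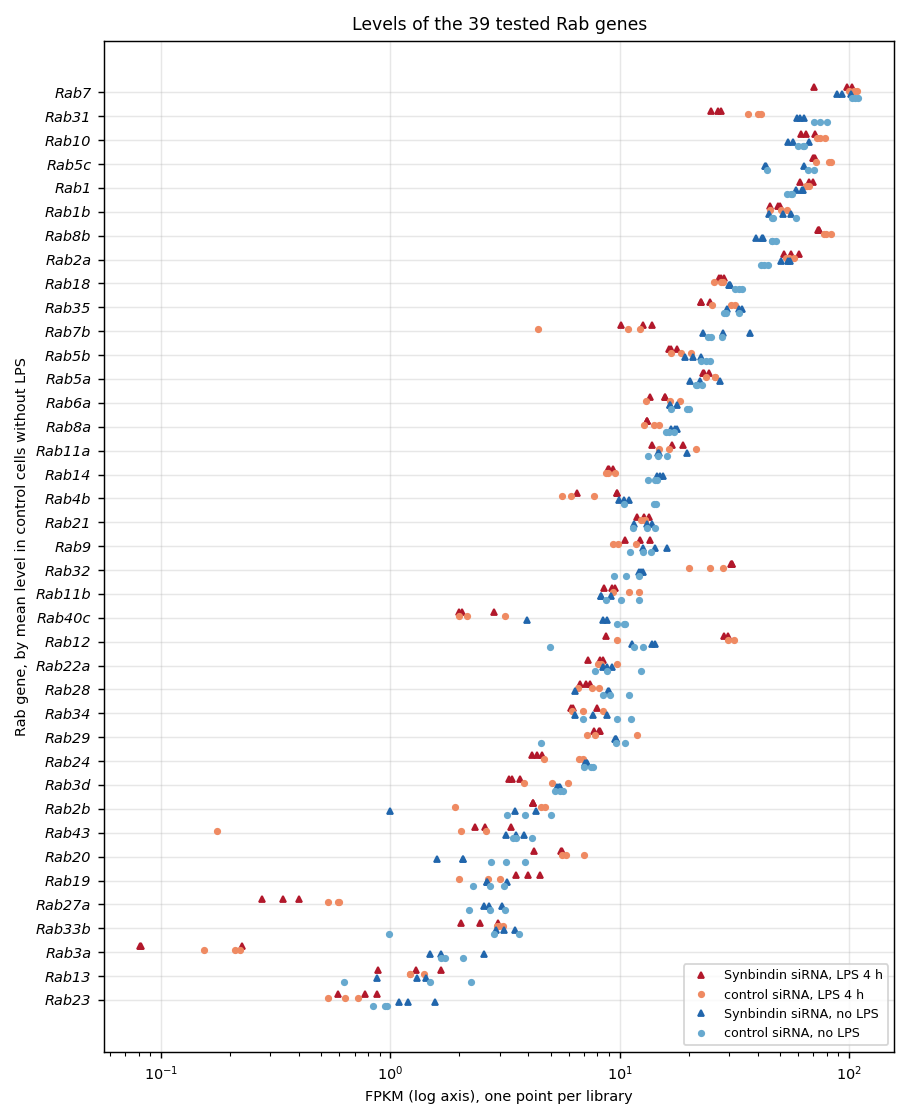
Levels of the 39 tested Rab genes in each of the 12 libraries, in FPKM on a log axis, ordered by the mean in control siRNA cells without LPS. Triangles are Synbindin siRNA libraries and circles are control siRNA libraries, after 4 h of LPS (red shades) or without LPS (blue shades); Rab7, at 70.3 to 110 FPKM, has the highest mean in each group, while Rab27a and Rab3a fall below 1 FPKM in every LPS library.

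The first comparison asked whether the Rabs that TRAPP activates, or any other Rab, changed at the RNA level when Synbindin was silenced. No Rab was called without LPS, and Rab31 alone was called after LPS, where it fell. For Rab1 and Rab11 transcripts no difference was shown. A fold change in these bulk libraries could come from RNA per cell or from a share of cells, which cannot be told apart.

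Rab1a, the TRAPP target of the early secretory pathway, lies on chromosome 11 at 20201432 to 20226856, and Rab1b on chromosome 19 at 5099205 to 5107072 (GRCm38). Rab1a had 61.4, 66.8 and 69.4 FPKM in Synbindin siRNA cells, against 65.9, 65 and 66.7 FPKM in control cells after LPS. Without LPS it had 58.5, 62.2 and 62.9 FPKM in Synbindin siRNA cells, against 53.9, 55.9 and 56.4 FPKM in control cells. The groups overlapped after LPS, while without LPS every Synbindin siRNA library was above every control library. The log2 fold change was -0.0011 (95% interval -0.15 to 0.14) after LPS and 0.14 (95% interval -0.0049 to 0.29) without LPS, with limma adjusted p of 0.999 and 0.438.

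Rab1b, the close relative that shares the ER-to-Golgi role, had 49.1, 49.9 and 45.3 FPKM in Synbindin siRNA cells, against 50.5, 53.6 and 45.2 FPKM in control cells after LPS. Without LPS it had 51.7, 56 and 45 FPKM in Synbindin siRNA cells, against 59, 46.5 and 46.2 FPKM in control cells. The groups overlapped both times. The interval of the log2 fold change was -0.30 to 0.20 after LPS and -0.24 to 0.26 without LPS, so at a 95% level these libraries leave room for changes of that size in Rab1b.

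Rab11a, the broadly expressed Rab of recycling endosomes, had 13.8, 18.9 and 17 FPKM in Synbindin siRNA cells, against 14.9, 21.6 and 16.4 FPKM in control cells after LPS. Without LPS it had 14.7, 19.7 and 14.9 FPKM in Synbindin siRNA cells, against 16.1, 13.3 and 14.7 FPKM in control cells. Single libraries near 20 FPKM in 3 of the groups widened the intervals, which ran from -0.43 to 0.27 after LPS and from -0.21 to 0.49 without LPS. Rab11b had 9.55, 8.57 and 9.28 FPKM in Synbindin siRNA cells, against 11, 9.36 and 12.1 FPKM in control cells after LPS. Without LPS it had 8.26, 9.19 and 8.32 FPKM in Synbindin siRNA cells, against 10.1, 8.72 and 12.1 FPKM in control cells. Rab11b groups overlapped both times, and the log2 fold changes of -0.22 ± 0.12 after LPS and -0.23 ± 0.12 without LPS (SE) did not pass the test (adjusted p = 0.483 and 0.485 in limma).

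Over all 39 tested Rabs without LPS, limma called 0 at an adjusted p under 0.05, where 0.214% of all 13078 tested genes were called. Unadjusted p was under 0.05 for 5 Rabs, Rab2a, Rab20, Rab31, Rab8b and Rab40c, and for 1565 of all tested genes. The median log2 fold change was -0.01 for the Rabs and 0.007 for all tested genes. The smallest p belonged to Rab2a, which acts between the ER and the Golgi. It had 50.7, 54.1 and 55.5 FPKM in Synbindin siRNA cells, against 41.5, 42.4 and 44.2 FPKM in control cells without LPS. These groups did not overlap, but the log2 fold change of 0.32 ± 0.07 (SE) did not pass over all genes (limma adjusted p = 0.136). Rab20, a Rab of maturing phagosomes, had 1.6, 2.07 and 2.08 FPKM in Synbindin siRNA cells, against 3.18, 2.75 and 3.88 FPKM in control cells, again without overlap and short of the threshold at -0.54 ± 0.14 (adjusted p = 0.167).

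After LPS, 1 of 39 Rabs (2.56%) was called, where 0.719% of all tested genes were called. Unadjusted p was under 0.05 for 7 Rabs, Rab31, Rab19, Rab3d, Rab24, Rab35, Rab32 and Rab10, and for 1697 of all tested genes. The median log2 fold change was -0.078 for the Rabs and -0.027 for all tested genes. Of all genes called in this comparison, 43.6% were higher in Synbindin siRNA cells, against 60.5% with median-ratio scaling and 73.7% with quantile normalization.

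Rab31, which carries cargo between the trans-Golgi network and endosomes, was the Rab that fell. The gene lies on the minus strand of chromosome 17 at 65651729 to 65772752 (GRCm38). After LPS Rab31 had 27.8, 26.9 and 25.1 FPKM in Synbindin siRNA cells, against 41.3, 40.1 and 36.3 FPKM in control cells. Without LPS it had 63.5, 59.1 and 61.1 FPKM in Synbindin siRNA cells, against 74.7, 70.4 and 79.9 FPKM in control cells. Synbindin siRNA libraries were below all control libraries with and without LPS. The log2 fold change was -0.54 ± 0.08 after LPS (adjusted p = 0.0168 in limma) and -0.29 ± 0.08 without LPS (adjusted p = 0.189), and the difference between these, -0.25 ± 0.11, did not pass the test (adjusted p = 0.418). The call after LPS was lost when only the groups compared were fitted (adjusted p = 0.113), without Synbindin siRNA library 2 after LPS (0.0803), without control library 1 after LPS (0.0909) and without control library 2 after LPS (0.0768), while the log2 fold change stayed between -0.6 and -0.48 under all settings tried. Against its relative Rab22a, Rab31 made up 77% ± 0.766 of their summed level in Synbindin siRNA cells and 81.8% ± 2.6 in control cells after LPS (SD, n = 3 each).

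Other Rabs with small p after LPS did not pass. Rab19, a Rab reported at the Golgi, had 3.99, 4.48 and 3.53 FPKM in Synbindin siRNA cells, against 1.99, 3 and 2.67 FPKM in control cells, without overlap (0.50 ± 0.14, limma adjusted p = 0.142). Rab3d, a Rab of secretory granules, had 3.69, 3.29 and 3.41 FPKM in Synbindin siRNA cells, against 3.84, 5.94 and 5.08 FPKM in control cells, also without overlap (-0.40 ± 0.12, adjusted p = 0.175). The Synbindin siRNA libraries were all above the control libraries for 2 of 39 Rabs after LPS and all below them for 9, where 7.62% of all tested genes were all above and 11.3% all below. Without LPS 4 Rabs were all above and 7 all below, where 9.86% of all tested genes were all above and 8.35% all below. Among the 4 is Rab23, at 1.09, 1.56 and 1.19 FPKM in Synbindin siRNA cells, against 0.97, 0.952 and 0.844 FPKM in control cells. Rab23 reached 1 FPKM only in these Synbindin siRNA libraries, so the filter favoured its place there. The 9 after LPS include Rab27a, below 1 FPKM in all LPS libraries. No result about the Rabs is drawn from these counts.

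**Figure D2:**
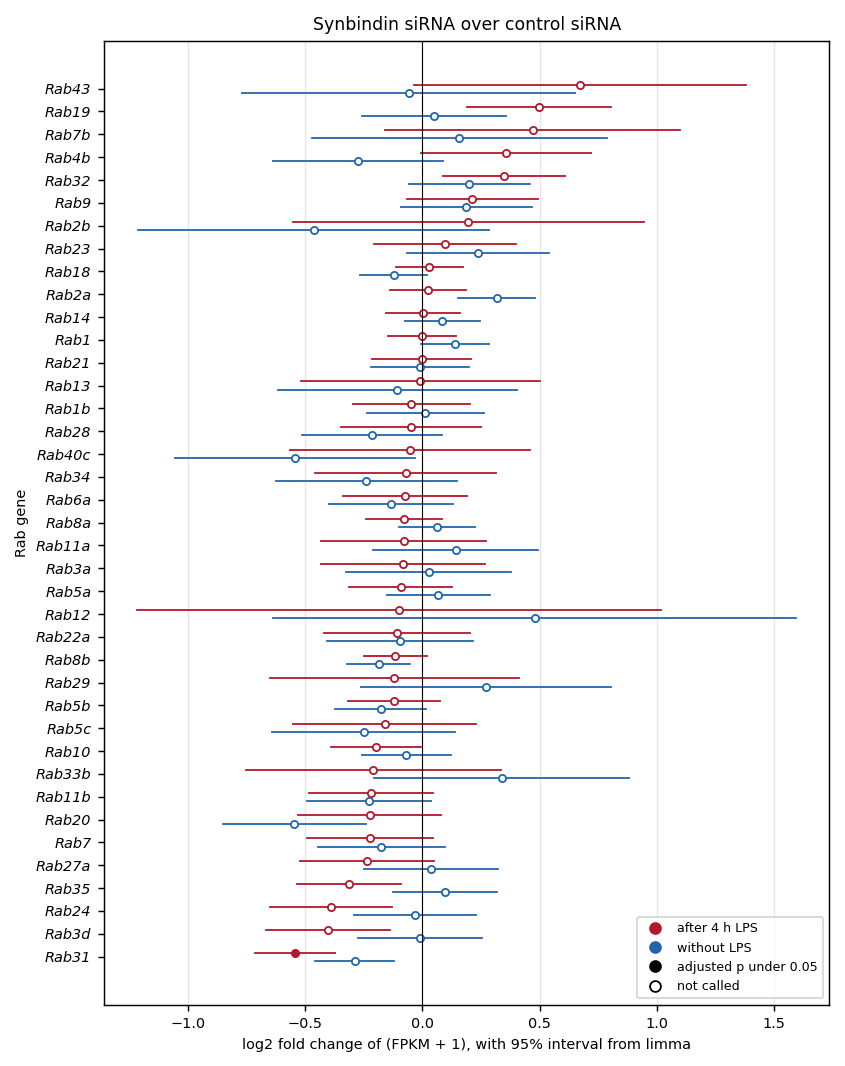
Log2 fold change of (FPKM + 1) for Synbindin siRNA over control siRNA in the 39 tested Rab genes, after 4 h of LPS (red) and without LPS (blue), with 95% intervals from limma. Filled points are called at an adjusted p under 0.05; the single filled point is Rab31 after LPS, at -0.54.

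The second comparison asked how the Rabs responded to 4 h of LPS. In Synbindin siRNA cells 5 of 39 tested Rabs rose (12.8%) and 12 fell (30.8%), where 13% of all tested genes rose and 35.5% fell. In control cells 6 rose (15.4%) and 11 fell (28.2%), where 15.3% of all tested genes rose and 32.9% fell, so the Rab shares were close to the background. These counts hold 3 Rabs, Rab23, Rab27a and Rab3a, that were below 1 FPKM in all 6 LPS libraries and entered the test only through libraries without LPS. Leaving out all such genes, which were below 1 FPKM in every library with or every library without LPS, 5 of 36 Rabs rose (13.9%) and 9 fell (25%) in Synbindin siRNA cells, where 11.7% of all genes left rose and 35.1% fell, and 6 rose (16.7%) and 9 fell (25%) in control cells, where 14.2% rose and 32.3% fell. Rab32, Rab20 and Rab8b rose in both kinds of cells, and Rab31, Rab7b, Rab14, Rab27a, Rab3a and Rab40c were among those that fell in both. The median log2 fold change in Synbindin siRNA cells was -0.142 for the Rabs and -0.21 for all tested genes, and in control cells it was -0.121 for the Rabs and -0.173 for all tested genes. Unadjusted p was under 0.05 for 17 of 39 Rabs in Synbindin siRNA cells and 20 in control cells. The same held for 7142 and 7185 of all 13078 tested genes, in the same order. These Rab counts include Rab27a and Rab3a, and Rab23 in Synbindin siRNA cells. The scaling of the libraries mattered: of all genes called with LPS in Synbindin siRNA cells, 26.8% were higher, against 51.3% with median-ratio scaling and 40.2% with quantile normalization, and in control cells 31.7% were higher, against 53% and 42.6%. The LPS calls of Rab32, Rab20, Rab8b, Rab31, Rab7b, Rab14 and Rab40c held in both kinds of cells under all settings tried, these scalings included. With median-ratio scaling the log2 fold change of Rab14 was smaller in size, at -0.4 in Synbindin siRNA cells and -0.36 in control cells, while those of Rab5c (0.78) and Rab19 (0.6) in Synbindin siRNA cells and of Rab1a (listed as Rab1, 0.48), Rab2a (0.59) and Rab10 (0.51) in control cells were larger than the values given below.

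**Figure D3:**
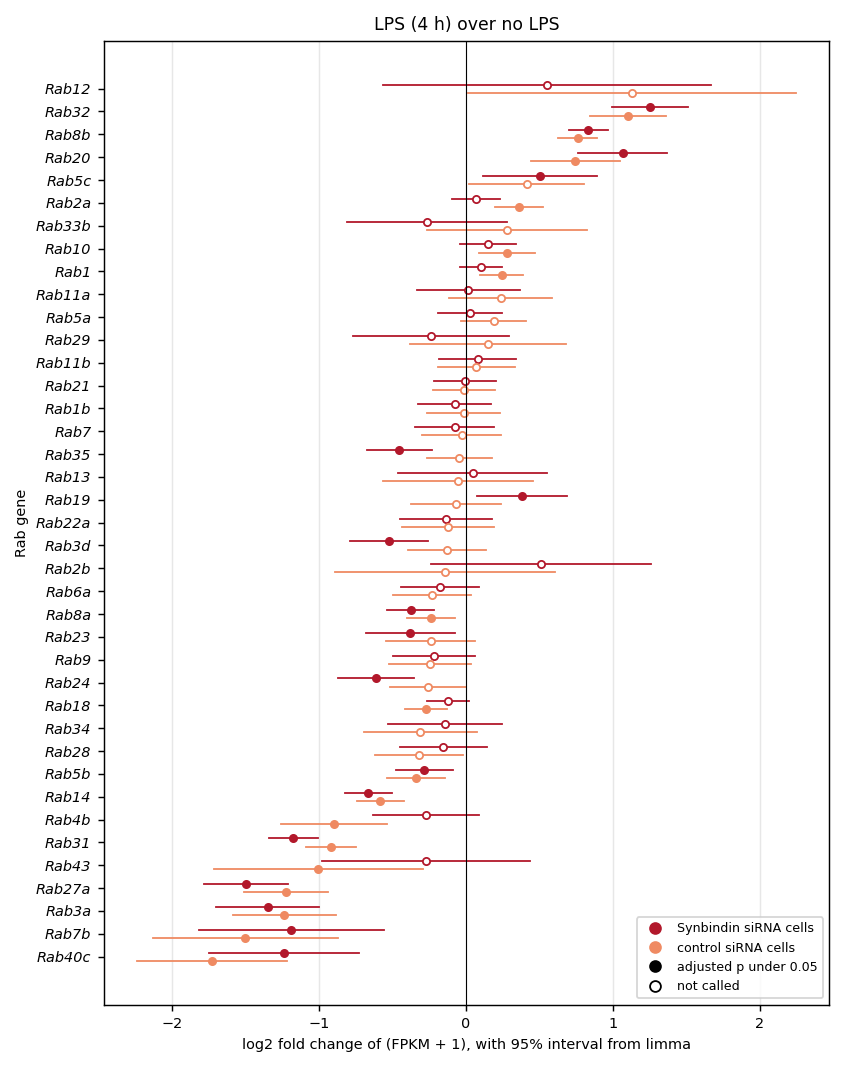
Log2 fold change of (FPKM + 1) for 4 h of LPS over none in the 39 tested Rab genes, in Synbindin siRNA cells (dark red) and control siRNA cells (orange), with 95% intervals from limma. Filled points are called at an adjusted p under 0.05; Rab32, Rab8b and Rab20 lie right of 0 and Rab40c, Rab7b, Rab3a and Rab27a lie farthest left.

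Promoter windows of 4 Rabs that moved with LPS, 3 that rose and Rab31 that fell, show what lies around their starts. Each window runs from 250 bases before to 50 bases after the RefSeq start on GRCm38.p6 and is printed 5′ to 3′ along the gene. Capitals mark letters of the motifs searched. Rab32 is at chr10:10558158-10558457, Rab20 at chr8:11478591-11478890, Rab8b at chr9:66919656-66919955 and Rab31 at chr17:65772703-65773002, all on the minus strand.
Rab32: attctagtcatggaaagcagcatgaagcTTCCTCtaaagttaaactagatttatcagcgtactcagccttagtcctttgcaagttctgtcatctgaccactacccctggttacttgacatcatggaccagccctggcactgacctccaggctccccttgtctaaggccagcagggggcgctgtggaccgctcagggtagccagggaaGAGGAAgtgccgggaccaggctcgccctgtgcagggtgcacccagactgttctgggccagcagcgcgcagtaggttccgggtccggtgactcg
Rab20: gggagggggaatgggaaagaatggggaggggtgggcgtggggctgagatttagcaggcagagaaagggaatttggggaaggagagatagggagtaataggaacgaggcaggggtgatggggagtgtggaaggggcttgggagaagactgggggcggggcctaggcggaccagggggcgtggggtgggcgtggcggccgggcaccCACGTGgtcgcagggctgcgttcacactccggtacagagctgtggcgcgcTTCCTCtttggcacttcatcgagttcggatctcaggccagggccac
Rab8b: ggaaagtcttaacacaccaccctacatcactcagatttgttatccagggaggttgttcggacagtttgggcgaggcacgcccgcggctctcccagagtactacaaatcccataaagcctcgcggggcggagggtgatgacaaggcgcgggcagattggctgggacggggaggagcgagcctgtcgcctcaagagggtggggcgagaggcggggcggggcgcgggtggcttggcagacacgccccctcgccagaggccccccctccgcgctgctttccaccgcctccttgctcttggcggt
Rab31: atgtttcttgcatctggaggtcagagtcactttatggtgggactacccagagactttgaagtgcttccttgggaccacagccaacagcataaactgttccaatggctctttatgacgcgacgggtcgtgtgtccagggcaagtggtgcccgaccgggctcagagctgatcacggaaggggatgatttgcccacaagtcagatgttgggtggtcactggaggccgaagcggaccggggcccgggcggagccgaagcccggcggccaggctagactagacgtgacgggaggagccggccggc

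Both strands were searched for 5 motifs, an NF-kB core (GGGNNNTTC), AP-1 (TGANTCA), a cAMP response element (TGACGTCA), an E-box (CACGTG) and a PU.1 core (GAGGAA), and none of these letter strings contains another. Rab32 held the PU.1 core letters at -222 to -217 and at -43 to -38, counted from the start. Rab20 held the E-box letters at -46 to -41 and the PU.1 core letters at 4 to 9. None of the 5 motifs was in the Rab8b or Rab31 windows. RefSeq windows matched 35 of the 39 tested Rabs. These held 44 windows, since some genes have more than 1 start. The NF-kB core was in 5 of the 44 windows (11.4%) and in 14% of all 32851 windows of the same length. The E-box was in 6 (13.6%, against 7.15% of all windows), the PU.1 core in 9 (20.5%, against 28.3%), AP-1 in 1 (2.27%, against 7.81%) and the cAMP response element in 1 (2.27%, against 1.79%). These matches describe letters and not binding.

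Among the 7 tested Rabs of late endosomes, lysosomes and lysosome-related organelles, 1 rose and 1 fell with LPS in both kinds of cells (14.3% each way). Of all tested genes, 13% rose and 35.5% fell in Synbindin siRNA cells, and 15.3% rose and 32.9% fell in control cells. The groups of Rabs by location held 3 to 9 tested members. Their counts, here and below, describe members and show no trait of a location. Rab32, which builds lysosome-related organelles and acts at mitochondria, had 31, 30.7 and 31 FPKM after LPS, against 12.1, 12.7 and 12.4 FPKM without LPS in Synbindin siRNA cells. In control cells it had 24.7, 20 and 28.2 FPKM after LPS, against 10.7, 9.43 and 12.1 FPKM without LPS. LPS libraries were all above those without, and Rab32 rose by 1.25 ± 0.12 in Synbindin siRNA cells (log2 ± SE; limma adjusted p = 5.94e-06) and by 1.10 ± 0.12 in control cells (adjusted p = 1.66e-05). Rab7b, a relative of Rab7 linked in macrophages to lysosomal delivery of Toll-like receptors, had 13.8, 12.7 and 10.1 FPKM after LPS, against 23, 36.9 and 28.3 FPKM without LPS in Synbindin siRNA cells. In control cells it had 10.9, 12.3 and 4.39 FPKM after LPS, against 28, 24.3 and 25.1 FPKM without LPS. Rab7b fell by 1.19 ± 0.29 in Synbindin siRNA cells (adjusted p = 0.00493) and by 1.5 ± 0.29 in control cells (adjusted p = 0.00117), without overlap. Its relative Rab7 differed by -0.08 ± 0.12 in Synbindin siRNA cells and by -0.03 ± 0.12 in control cells, and neither passed. The share of Rab7b in the sum of both was accordingly 12.3% ± 3.78 after LPS, against 23.6% ± 3.43 without LPS in Synbindin siRNA cells, and 8.01% ± 3.58 after LPS, against 19.5% ± 0.803 without LPS in control cells (SD, n = 3 each).

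Rab12, a Rab that sends receptors from recycling endosomes to degradation, is named here because its libraries stood apart when the values were seen. It had 28.5, 8.7 and 29.6 FPKM after LPS, against 13.8, 11.3 and 14.2 FPKM without LPS in Synbindin siRNA cells. In control cells it had 31.6, 29.8 and 9.76 FPKM after LPS, against 12.7, 4.99 and 11.5 FPKM without LPS. Of the 6 LPS libraries, 4 were therefore near 30 FPKM and the other two were below most libraries without LPS. The log2 fold change was 0.55 ± 0.51 in Synbindin siRNA cells and 1.13 ± 0.51 in control cells, the widest errors of any tested Rab, and neither passed (adjusted p = 0.399 and 0.0867 in limma).

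Among the 8 tested early endosomal Rabs, 2 rose (25%) and 3 fell (37.5%) with LPS in Synbindin siRNA cells, and 1 rose (12.5%) and 2 fell (25%) in control cells. The shares of all tested genes were 13% and 35.5%, and 15.3% and 32.9%, in the same order. Rab31 fell in both, by 1.17 ± 0.08 in Synbindin siRNA cells (adjusted p = 3.53e-07) and by 0.92 ± 0.08 in control cells (adjusted p = 2.74e-06). Its levels, given above for each library, were 26.6 ± 1.39 FPKM in Synbindin siRNA cells and 39.2 ± 2.57 FPKM in control cells after LPS, against 75 ± 4.76 FPKM in control cells without LPS (SD, n = 3 each). Rab20 had 4.24, 5.55 and 5.58 FPKM after LPS, against 1.6, 2.07 and 2.08 FPKM without LPS in Synbindin siRNA cells. In control cells Rab20 had 5.61, 6.98 and 5.82 FPKM after LPS, against 3.18, 2.75 and 3.88 FPKM without LPS. It rose by 1.07 ± 0.14 in Synbindin siRNA cells (adjusted p = 7.1e-05) and by 0.74 ± 0.14 in control cells (adjusted p = 0.00099), without overlap. An exon of E230013L22Rik overlaps 356 bases of Rab20 exons on the opposite strand, and the strand setting of the counting is not given in the sources used here, so reads of the pair cannot be told apart. The same limit holds for Rab11b (329 bases shared with another gene), Rab5a (221), Rab7 (204), Rab10 (143), Rab40c (103) and Rab3a (29), for Rab2b (2469 with Gm43766), Rab6a (708) and Rab33b (661), and for Rab22a. Rab18 (305), Rab27a (149) and Rab11a (107) share exonic bases with a gene on the same strand, so a known strand setting would not separate those reads. Of the Rab5 trio, which governs fusion of early endosomes, Rab5b fell by 0.28 ± 0.09 in Synbindin siRNA cells and by 0.34 ± 0.09 in control cells, with adjusted p of 0.0202 and 0.00791, or 0.907 and 0.329 with median-ratio scaling. Rab5c rose by 0.50 ± 0.18 in Synbindin siRNA cells (adjusted p = 0.0349) and differed by 0.41 ± 0.18 in control cells (adjusted p = 0.0751), and Rab5a was called in neither. The Rab5b call of Synbindin siRNA cells was lost without library 1 or 3 at either time (adjusted p = 0.0501 to 0.0757), and that of Rab5c without Synbindin siRNA library 1 or 3 without LPS or any of the 3 LPS libraries (0.0674 to 0.117). The Rab5c call was also lost with quantile normalization (log2 fold change 0.34, adjusted p = 0.15), with scaling to a common sum (0.0546) and without the filter (0.0838). Rab24, a Rab of autophagic membranes, fell by 0.61 ± 0.12 in Synbindin siRNA cells (adjusted p = 0.00121) and differed by -0.26 ± 0.12 in control cells (adjusted p = 0.0953), with the call in Synbindin siRNA cells lost under quantile normalization (0.0546). Its exons share 1258 bases with Prelid1 on the opposite strand.

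Among the 7 tested Rabs of exocytosis and secretory granules, 1 rose and 4 fell in Synbindin siRNA cells, and 2 rose and 3 fell in control cells. Without Rab27a and Rab3a, 1 of 5 rose (20%) and 2 fell (40%) in Synbindin siRNA cells, and 2 rose (40%) and 1 fell (20%) in control cells. Leaving out such genes everywhere, the shares of all genes left were 11.7% and 35.1%, and 14.2% and 32.3%, in the same order. Rab8b, which carries vesicles from the Golgi and recycling endosomes to the cell surface, had 73.9, 73.5 and 74.3 FPKM after LPS, against 41.6, 39.3 and 42.2 FPKM without LPS in Synbindin siRNA cells. In control cells Rab8b had 77.6, 79.6 and 83.1 FPKM after LPS, against 46.1, 46.4 and 48.1 FPKM without LPS. It rose without overlap, by 0.83 ± 0.06 in Synbindin siRNA cells (adjusted p = 7.77e-07) and by 0.76 ± 0.06 in control cells (adjusted p = 1.79e-06). Its relative Rab8a, which shares the route to the surface, fell by 0.38 ± 0.07 in Synbindin siRNA cells (adjusted p = 0.00131, and 0.234 with median-ratio scaling) and by 0.24 ± 0.07 in control cells (adjusted p = 0.02). The Rab8a call in control cells was lost without control library 2 without LPS (adjusted p = 0.0666) and without control library 3 after LPS (0.0734), and with median-ratio scaling the Rab8a log2 fold change in control cells was -0.01. That call was also lost with quantile normalization (0.115) and with the compared groups alone (0.0694). Of the summed level of Rab8a, Rab8b, Rab10 and Rab13, Rab8b made up 47.9% ± 1.34 after LPS, against 34.6% ± 1.63 without LPS in Synbindin siRNA cells, and 46.9% ± 0.3 after LPS, against 36.9% ± 0.552 without LPS in control cells (SD, n = 3 each).

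Rab10, which delivers surface proteins such as glucose transporters and, in macrophages, Toll-like receptor 4, had 64.9, 61.6 and 71.2 FPKM after LPS, against 54.3, 57.2 and 66.8 FPKM without LPS in Synbindin siRNA cells. In control cells Rab10 had 72.8, 75.1 and 78.8 FPKM after LPS, against 63.1, 59.9 and 63.4 FPKM without LPS. The groups overlapped in Synbindin siRNA cells (0.15 ± 0.09, limma adjusted p = 0.179) and stood apart in control cells, where Rab10 rose by 0.28 ± 0.09 (adjusted p = 0.0202). That call was lost without control library 2 without LPS (adjusted p = 0.0639), without control library 3 after LPS (0.0638) and with quantile normalization (0.66).

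Rab27a, which docks secretory lysosomes and exosome-bearing endosomes, had 0.342, 0.398 and 0.276 FPKM after LPS, against 2.7, 3.06 and 2.56 FPKM without LPS in Synbindin siRNA cells. In control cells it had 0.537, 0.589 and 0.595 FPKM after LPS, against 3.16, 2.2 and 2.73 FPKM without LPS. Rab3a, a Rab of regulated secretion best known from synaptic vesicles, had 0.081, 0.226 and 0.0822 FPKM after LPS, against 1.49, 2.55 and 1.67 FPKM without LPS in Synbindin siRNA cells. In control cells Rab3a had 0.154, 0.222 and 0.21 FPKM after LPS, against 1.67, 1.73 and 2.07 FPKM without LPS. Both were at low levels throughout and lower in every LPS library. Rab27a fell by 1.49 ± 0.13 in Synbindin siRNA cells (adjusted p = 3.19e-06) and by 1.22 ± 0.13 in control cells (adjusted p = 1.59e-05). Rab3a fell by 1.35 ± 0.16 in Synbindin siRNA cells (adjusted p = 3.47e-05) and by 1.24 ± 0.16 in control cells (adjusted p = 6.99e-05). Because both entered the test only through libraries without LPS, where they were high, their falls are given as values and not as support for a count. The added 1 in log2(FPKM + 1) understates fold changes at these levels: with a pseudocount of 0.1 they were -2.72 in Synbindin siRNA cells and -2.04 in control cells for Rab27a, and -3.15 and -2.7 in the same order for Rab3a. Rab3d fell by 0.52 ± 0.12 in Synbindin siRNA cells (adjusted p = 0.00372, and 0.0711 with median-ratio scaling) and differed by -0.13 ± 0.12 in control cells (adjusted p = 0.399).

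**Figure D4:**
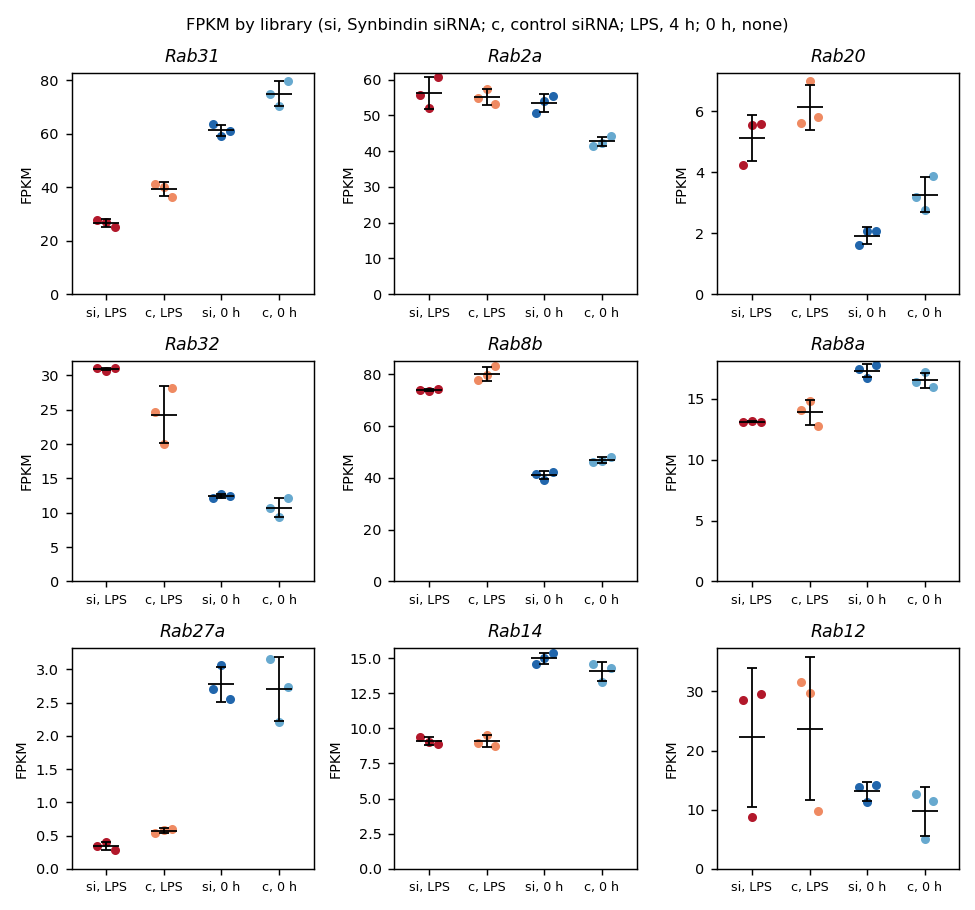
FPKM of 9 Rab genes in each library, with the mean (long bar) and SD (short bars) of each group of 3. Groups from left to right are Synbindin siRNA (si) and control siRNA (c) cells after 4 h of LPS, then the same pair without LPS (0 h); Rab31 is lower in Synbindin siRNA cells in both pairs, at 26.6 FPKM against 39.2 FPKM after LPS, and Rab12 has 2 LPS libraries, at 8.7 and 9.76 FPKM, apart from the other 4.

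Among the 5 tested recycling Rabs, 2 fell (40%) in each kind of cells and none rose. Of all tested genes, 35.5% fell and 13% rose in Synbindin siRNA cells, and 32.9% fell and 15.3% rose in control cells. Rab14, which moves membrane between the Golgi, endosomes and phagosomes, had 9.4, 9.02 and 8.89 FPKM after LPS, against 14.6, 15 and 15.4 FPKM without LPS in Synbindin siRNA cells. In control cells Rab14 had 8.93, 9.56 and 8.75 FPKM after LPS, against 14.6, 13.3 and 14.3 FPKM without LPS. It fell in both without overlap, by 0.66 ± 0.07 in Synbindin siRNA cells (adjusted p = 1.88e-05) and by 0.58 ± 0.07 in control cells (adjusted p = 5.4e-05). Rab4b, a Rab of fast recycling, had 6.49, 9.71 and 9.69 FPKM after LPS, against 9.92, 11 and 10.5 FPKM without LPS in Synbindin siRNA cells. In control cells Rab4b had 7.74, 6.11 and 5.59 FPKM after LPS, against 14.4, 14.1 and 10.4 FPKM without LPS. Rab4b fell by 0.90 ± 0.17 in control cells (adjusted p = 0.000886), and differed by -0.27 ± 0.17 in Synbindin siRNA cells (adjusted p = 0.203). Exons of Gm21983 share 1280 bases with Rab4b on the same strand, so the split of reads between them is uncertain. Rab35, which returns cargo from endosomes to the plasma membrane, fell by 0.45 ± 0.10 in Synbindin siRNA cells (adjusted p = 0.00306, and 0.154 with median-ratio scaling) and differed by -0.04 ± 0.10 in control cells (adjusted p = 0.75). Rab11a and Rab11b were called with LPS in neither kind of cells.

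Among the 9 tested Rabs of the ER and Golgi, 1 rose (11.1%) in Synbindin siRNA cells and 2 rose (22.2%) and 2 fell (22.2%) in control cells. Of all tested genes, 13% rose and 35.5% fell in Synbindin siRNA cells, and 15.3% rose and 32.9% fell in control cells. Rab1a, by the levels given above, rose by 0.24 ± 0.07 in control cells (adjusted p = 0.0096) and differed by 0.10 ± 0.07 in Synbindin siRNA cells (adjusted p = 0.225). The Rab1a call was lost with quantile normalization, where the log2 fold change was 0.04 (adjusted p = 0.602). Rab2a had 55.8, 52 and 60.8 FPKM after LPS, against 50.7, 54.1 and 55.5 FPKM without LPS in Synbindin siRNA cells. In control cells Rab2a had 54.8, 57.5 and 53.1 FPKM after LPS, against 41.5, 42.4 and 44.2 FPKM without LPS. Rab2a rose by 0.36 ± 0.07 in control cells (adjusted p = 0.00189, and 0.0796 with quantile normalization) and differed by 0.07 ± 0.07 in Synbindin siRNA cells (adjusted p = 0.481). Rab18, which sits on the ER and lipid droplets, fell by 0.27 ± 0.07 in control cells (adjusted p = 0.00483), but its log2 fold change was -0.04 with median-ratio scaling (adjusted p = 0.649). Rab43, a Golgi Rab, had 3.36, 2.34 and 2.59 FPKM after LPS, against 3.19, 3.53 and 3.83 FPKM without LPS in Synbindin siRNA cells. In control cells Rab43 had 2.62, 0.176 and 2.03 FPKM after LPS, against 4.16, 3.43 and 3.52 FPKM without LPS. Rab43 fell by 1.003 ± 0.323 in control cells (adjusted p = 0.0234), with its lowest value in library 2 after LPS. Without that library its log2 fold change was -0.51 (adjusted p = 0.0184), with a pseudocount of 0.1 it was -1.7 (0.0489), and the call was lost without control library 1 without LPS (adjusted p = 0.0676) and with median-ratio scaling (0.0584). The Rab43 call was also lost with quantile normalization (0.0914), without the filter (0.0653) and with the compared groups alone (0.0768). Gm45140 shares 4164 exonic bases with Rab43 on the same strand. Rab19 rose by 0.38 ± 0.14 in Synbindin siRNA cells (adjusted p = 0.0416), a call lost in 6 of 12 fits that left out a library, among them those without Synbindin siRNA library 1 (0.084) or 2 (0.139) after LPS, 2 (0.111) or 3 (0.109) without LPS, control library 1 without LPS (0.0533) and control library 3 after LPS (0.0505). The Rab19 call was also lost with scaling to a common sum (0.0749), without the filter (0.0835) and with a replicate block (0.0615).

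Of the 3 tested Rabs linked to cilia or other tasks, 2 fell (66.7%) in Synbindin siRNA cells and 1 (33.3%) in control cells, or 1 in each without Rab23. Of all tested genes, 35.5% and 32.9% fell, in the same order. Rab40c, an atypical Rab that assembles a ubiquitin ligase, had 2.84, 1.99 and 2.06 FPKM after LPS, against 8.46, 3.96 and 8.82 FPKM without LPS in Synbindin siRNA cells. In control cells Rab40c had 3.15, 2.16 and 1.99 FPKM after LPS, against 10.4, 10.6 and 9.76 FPKM without LPS. Every LPS library was below every library without LPS. Rab40c fell by 1.24 ± 0.23 in Synbindin siRNA cells (adjusted p = 0.000991) and by 1.73 ± 0.23 in control cells (adjusted p = 9.79e-05), the lowest fold change of any tested Rab there. Rab23, a Rab of the primary cilium, ran from 0.534 to 1.56 FPKM over all libraries, and its call in Synbindin siRNA cells (-0.38 ± 0.14, adjusted p = 0.04) was lost without Synbindin siRNA library 2 (0.131) or 3 (0.0773) after LPS and without control library 1 (0.0513) or 2 (0.0507) after LPS. The Rab23 call was also lost with median-ratio scaling (0.178), quantile normalization (0.222), a replicate block (0.0552) and the compared groups alone (0.0838). Since Rab23 reached 1 FPKM only in Synbindin siRNA libraries without LPS, its fall is given as values and not as support for a count.

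The third comparison asked whether silencing altered the LPS response of any Rab, as the difference between the LPS fold changes of Synbindin siRNA and control cells. Called in both kinds of cells were 11 Rabs, Rab14, Rab20, Rab27a, Rab31, Rab32, Rab3a, Rab40c, Rab5b, Rab7b, Rab8a and Rab8b, all 11 with the same sign, which is 28.2% of the 39 tested, where 37.7% of all tested genes were called in both with the same sign. A further 6 were called only in Synbindin siRNA cells and 6 only in control cells, and 16 in neither. These counts include Rab27a and Rab3a among the 11, and Rab23 among those called only in Synbindin siRNA cells. All of these entered the test only through libraries without LPS. The shares of 28.2% and 37.7% were not recomputed without such genes, so no result about the Rabs is drawn from them. The 16 were Rab11a, Rab11b, Rab12, Rab13, Rab1b, Rab21, Rab22a, Rab28, Rab29, Rab2b, Rab33b, Rab34, Rab5a, Rab6a, Rab7 and Rab9, with log2 fold changes from -0.27 (Rab33b) to 0.55 (Rab12) in Synbindin siRNA cells and from -0.32 (Rab28) to 1.13 (Rab12) in control cells. A call in 1 kind of cells does not show a difference: limma called 0 Rabs for the difference itself, where 0.0612% of all tested genes, 8 in number, were called. Of those 8, 62.5% were higher, against 83.3% of calls with median-ratio scaling. Unadjusted p was under 0.05 for 6 Rabs, Rab35, Rab2a, Rab4b, Rab31, Rab3d and Rab19, and for 1480 of all tested genes. The smallest adjusted p were 0.339 for Rab35 (-0.41 ± 0.14), 0.353 for Rab2a (-0.29 ± 0.11) and 0.364 for Rab4b (0.63 ± 0.23).

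The Rab regulators, from lists of exchange factors, TRAPP subunits, GTPase-activating proteins, prenylation and recycling factors, effectors, and kinases and a phosphatase of Rabs, are described as counts because the Rabs depend on them to be switched on, switched off and held on membranes. Of 14 tested TRAPP subunits, 0 rose and 5 fell (35.7%) with LPS in Synbindin siRNA cells, where 35.5% of all tested genes fell, and 0 rose and 7 fell (50%) in control cells, where 32.9% fell. The lowest p in control cells belonged to Trappc8, a subunit of the TRAPP complex that acts on Rab1 in autophagy, which had 7.26, 6.46 and 5.44 FPKM after LPS, against 10.5, 10.4 and 11.5 FPKM without LPS in Synbindin siRNA cells. In control cells Trappc8 had 5.53, 5.79 and 6 FPKM after LPS, against 11.5, 11.4 and 11.9 FPKM without LPS, a fall of 0.90 ± 0.10 (adjusted p = 1.81e-05). With median-ratio scaling 3 TRAPP subunits rose and 3 fell in Synbindin siRNA cells, and 0 rose and 3 fell in control cells. No TRAPP subunit was called with silencing at either time (limma; 1 of 14, Trappc4, had an unadjusted p under 0.05 each time).

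Of 34 tested Rab GTPase-activating proteins, 2 rose and 23 fell in Synbindin siRNA cells and 3 rose and 23 fell in control cells, with medians of -0.609 and -0.605 beside the medians of all tested genes given above. Among them, Tbc1d4 and Evi5l were below 1 FPKM in all 6 LPS libraries, and without this pair 2 rose and 21 of 32 fell (65.6%) in Synbindin siRNA cells, where 35.1% of all genes left fell, and 3 rose and 21 fell (65.6%) in control cells, where 32.3% fell. With median-ratio scaling 4 rose and 20 fell in Synbindin siRNA cells and 3 rose and 19 fell in control cells. Tbc1d2, which inactivates Rab7, fell to 1.21, 1.01 and 0.501 FPKM after LPS, against 8.34, 7.6 and 9.53 FPKM without LPS in Synbindin siRNA cells, and to 0.849, 0.387 and 0.532 FPKM after LPS, against 5.2, 5.55 and 7.69 FPKM without LPS in control cells. Tbc1d14, a Rab11-binding protein that also contacts TRAPP, fell by 1.94 ± 0.15 in Synbindin siRNA cells and by 1.80 ± 0.15 in control cells. Of 36 tested exchange factors, 2 rose and 19 fell in Synbindin siRNA cells and 3 rose and 17 fell in control cells. Without Rin1 and Dennd3, also below 1 FPKM in all LPS libraries, 2 rose and 17 of 34 fell (50%) in Synbindin siRNA cells, and 3 rose and 15 fell (44.1%) in control cells. Of all genes left, 35.1% and 32.3% fell, in the same order. With median-ratio scaling 9 rose and 14 fell in Synbindin siRNA cells and 5 rose and 12 fell in control cells.

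Of all tested genes, 13% rose and 35.5% fell with LPS in Synbindin siRNA cells, and 15.3% rose and 32.9% fell in control cells. Of 28 tested effectors, 5 rose (17.9%) and 18 fell (64.3%) in Synbindin siRNA cells, and 5 rose (17.9%) and 15 fell (53.6%) in control cells. With median-ratio scaling 7 rose and 8 fell in Synbindin siRNA cells and 6 rose and 9 fell in control cells. Without Mical3, below 1 FPKM in all LPS libraries, 5 rose and 17 of 27 fell (63%) in Synbindin siRNA cells, and 5 rose and 14 fell (51.9%) in control cells. Of all genes left, 11.7% rose and 35.1% fell in Synbindin siRNA cells, and 14.2% rose and 32.3% fell in control cells. Micall2, an effector of Rab8 and Rab13, rose to 18.4, 16.9 and 19.8 FPKM after LPS, against 2.57, 3.02 and 3.55 FPKM without LPS in Synbindin siRNA cells, and to 17.4, 15.9 and 21.7 FPKM after LPS, against 2.03, 2.29 and 3.03 FPKM without LPS in control cells. Plekhm1, the Rab7 effector that joins late endosomes to lysosomes, fell by 2.01 ± 0.12 in Synbindin siRNA cells and by 1.97 ± 0.12 in control cells, and Rab11fip1, an effector of Rab11, rose by 1.48 ± 0.13 and by 1.36 ± 0.13 in the same cells. Of 9 tested prenylation and recycling factors, 1 fell (11.1%) in Synbindin siRNA cells (Chml, an escort protein for prenylation, by 0.39 ± 0.14, adjusted p = 0.0336) and 0 were called in control cells by limma, where 1 had an unadjusted p under 0.05. The Chml call was lost without Synbindin siRNA library 1 (0.0849) or 3 (0.0879) without LPS and without library 1 (0.0963) or 2 (0.0957) after LPS, and with median-ratio scaling 1 factor rose in Synbindin siRNA cells and 4 in control cells. Of the 3 kinases and phosphatase, Lrrk1 and Ppm1h (66.7%) fell in both kinds of cells, while with median-ratio scaling 1 of the 3 fell in Synbindin siRNA cells and 2 in control cells, and with quantile normalization 1 fell in each. Among the 5 tested Rab-like genes, Rabl6 was the one called with LPS (20%), in Synbindin siRNA cells (-0.34 ± 0.08, adjusted p = 0.00346, and 0.391 with median-ratio scaling).

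With silencing after LPS, 1 of 36 tested exchange factors (2.78%) and 1 of 5 tested Rab-like genes (20%) were called. The share of all tested genes called was 0.719%. No GTPase-activating protein, effector, prenylation or recycling factor, kinase or phosphatase was called there. Without LPS no gene of these lists was called with silencing. Dennd5a, an exchange factor with a DENN domain, had 6.15, 6.8 and 7.02 FPKM in Synbindin siRNA cells, against 9.7, 11.9 and 12.7 FPKM in control cells (-0.69 ± 0.11, limma adjusted p = 0.0291). Rabl6, a Rab-like GTPase, had 9.41, 9.4 and 9.07 FPKM in Synbindin siRNA cells, against 13.6, 14.1 and 12.1 FPKM in control cells (-0.47 ± 0.08, adjusted p = 0.0296). Neither group overlapped with its control. Both calls were lost when only the groups compared were fitted, with quantile normalization, and without any 1 of Synbindin siRNA libraries 1 to 3 or control library 2 after LPS; the Dennd5a call was also lost without control library 3 (adjusted p = 0.0513) and the Rabl6 call without control library 1 (adjusted p = 0.115), with the highest adjusted p at 0.136 for Dennd5a and 0.15 for Rabl6.

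**Figure D5:**
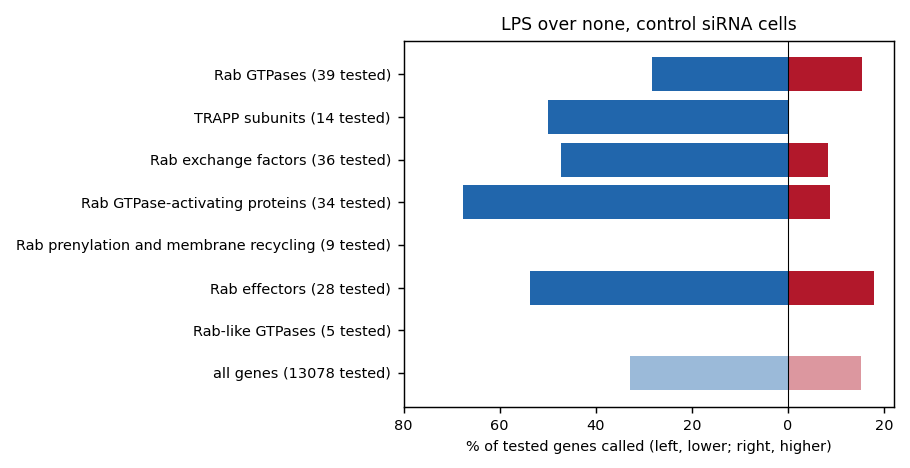
Share of tested genes called with LPS over none in control siRNA cells, in percent, for the Rab GTPases, 5 lists of Rab regulators, the Rab-like genes, and all tested genes. Bars to the left are genes that fell and bars to the right genes that rose. As drawn, 67.6% of the GTPase-activating proteins fell, against 28.2% of the Rab GTPases and 32.9% of all tested genes. The bars include genes below 1 FPKM in every library with or every library without LPS. Without such genes these shares are 65.6%, 25% and 32.3%.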

How the data were processed

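RNA-seq of 12 RAW264.7 libraries was analysed from 1 table of gene FPKM deposited by the authors. HISAT2, StringTie and the GRCm38 build are named in the submitters' processing notes, without tool versions. Annotation release and strand setting: not given in the sources used here. The FPKM deposited by the authors were not counts, and low values within 1% of whole multiples of 1 fragment made up 5.79% to 15% per library, so no count test was run.

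Genes reaching 1 FPKM in 3 or more libraries were tested on log2(FPKM + 1) with limma 3.58.1 in R 4.3.3, with 1 mean per group over all 12 libraries, 8 residual degrees of freedom and an intensity trend. Tests were 2-sided, with Benjamini-Hochberg adjustment over 13078 genes, and called under 0.05. The fit was tested on simulated data without a shift in scaling between groups, so that test does not bear on the scalings tried. Trappc4 also had an exact permutation test. Fold changes are on the log2(FPKM + 1) scale.

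The members and lists were chosen with earlier results of these data known. Values in every library were given for Rab1a, Rab1b, Rab11a, Rab11b, Rabs called with silencing, the 8 highest and 8 lowest called LPS fold changes in control cells, and the 3 smallest p per silencing comparison; from each regulator list, up to 4 called genes. Coordinates and exon overlaps came from the GRCm38 annotation and promoters from RefSeq on GRCm38.p6, which matched 47 of 59 members. Alternatives were other pseudocounts, filters, scalings, a replicate block, fits of the compared groups alone or without the trend, and leaving out each library.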

Additional observations from a re-analysis of the deposited data

How the results depend on the processing

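Of 35 calls of single Rabs, none changed sign. Leaving aside 5 LPS calls of Rabs below 1 FPKM in all LPS libraries, 15 of 30 held under all settings tried and 23 in every fit that left out 1 library. With silencing after LPS, 0 Rabs were called when only the compared groups were fitted, and 0 to 1 when 1 library was left out. With LPS in Synbindin siRNA cells, 11 Rabs rose with median-ratio scaling, 3 without the filter, 3 with a common sum and 3 to 5 when 1 library was left out (3 without library 1 or 2 after LPS), and 7 fell with median-ratio scaling. With LPS in control cells, 10 rose with median-ratio scaling and 3 with quantile normalization, and 7 fell with median-ratio scaling. When 1 library was left out, 6 to 7 rose and 10 to 12 fell in control cells, and 10 to 12 fell in Synbindin siRNA cells. Median-ratio scaling moved the median log2 fold change of all genes by 0.241 in Synbindin siRNA cells and 0.204 in control cells, and quantile normalization by 0.191 and 0.171; the cause was not tested.

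Among all genes, 94 were called with silencing after LPS, against 38 with quantile normalization, 50 without the trend, 0 with only the compared groups and 10 to 96 when 1 library was left out. Without LPS it was 28, against 48 with the replicate block, 6 with only the compared groups, 10 without the trend and 3 to 40 when 1 library was left out. For the difference between LPS responses it was 8, against 5 with a pseudocount of 0.1, 4 without the trend and 0 to 20 when 1 library was left out.

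The deviations of same-numbered libraries from their group means correlated at -0.027 to 0.189. Of 18 pairs, 3 were over 0.1, all of them between libraries numbered 3, and since the others were not, the numbers were not taken as pairs. With the replicate block, 1 Rab was called with silencing after LPS and 0 without LPS, 4 rose and 11 fell with LPS in Synbindin siRNA cells, 6 rose and 12 fell in control cells, and 0 were called for the difference. Trappc4 remaining ran from 49.3% to 62.7% after LPS and from 39.7% to 50.3% without LPS when 1 library was left out. FPKM without counts set no limit of detection, so a Rab listed at 0 may be present below what these libraries show.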
